A study of Arabidopsis thaliana with 8 samples.

Results

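Beta-glucosidases of glycoside hydrolase family 1 cut glucose from plant glucosides, and in Arabidopsis thaliana most of them carry the name BGLU and a number. The members described here are the probe sets with exactly 1 annotated gene whose symbol is PYK10 or BGLU followed by a digit. They number 21 of the 22810 probe sets of the array, and each stands for a different gene. The TAIR10.1 gene table holds 41 genes with such a symbol, of which 20 have no probe set under this rule and were not analysed here. One further probe set is assigned to more than 1 BGLU gene and was left out.

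RNA came from whole shoots of the Col-1 accession with 4 rosette leaves, kept on agar plates in normal atmosphere with 16 h of light per day and collected 6 h after the start of the light period. All 8 samples share this material, and they differ by the spike mix, RNAs that were added to it: mixes 1 to 7 and a reference mix, with 1 ATH1 array each. No mix was repeated, so no difference between mixes has a replicate check, and every SD below is the spread over the 8 arrays. The labels do not say whether the arrays carry separate plants or separate extractions, and they do not name the added RNAs. The study sets array platforms side by side.

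Many plant defence compounds, hormones and lignin precursors are stored as inactive glucosides, and a beta-glucosidase releases the active part. PYK10 is the main beta-glucosidase of ER bodies, spindle-shaped compartments of the endoplasmic reticulum found in seedlings and roots, where enzyme and substrate meet when the cell is damaged. Other family members are known for the release of abscisic acid, for flavonol breakdown, for monolignol glucosides and for the breakdown of glucosinolates, the mustard oil precursors of this plant order.

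A member is called on where its MAS5 signal, a linear intensity, was above 12.9 on all 8 arrays, off where it was at or under 12.9 on all 8, and variable otherwise. The value 12.9 is the 25th percentile of the whole table and is called the floor. In shoots 9 members were on, 7 were variable and 5 were off. The 9 were PYK10, BGLU15, BGLU16, BGLU25, BGLU33, BGLU40, BGLU42, BGLU44 and BGLU47. They made up 42.9% of the members, whereas 66.5% of the 22746 probe sets without the manufacturer's controls were on. Off members were 23.8% against 16.5% of all probe sets, and variable members 33.3% against 17.0%. These shares are a description and were not tested. The 22746 probe sets are not limited to the 13513 with exactly 1 annotated gene, from which the members come. In whole shoots, fewer cells that carry a transcript and less of it per cell cannot be told apart.

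The floor is a low threshold, and the arrays hold 2 other measures of what a weak signal is worth. The highest signal of the 27 poly(A) control probe sets, which match bacterial genes, was 25.5 on any array; the labels do not say whether these RNAs were added. All 9 members that were on, which are 42.9% of the members, lay above 25.5 on every array, against 55.1% of all probe sets. No variable member lay above 25.5 on any array, and the highest signal of a variable member was 22.5. The root hair expansin genes EXPA7 and EXPA18, the 2 of 10 listed root markers with a probe set of their own, had signals of 17.2 to 29.3 and 17.3 to 35.0 and were therefore on by the floor. Of 7 listed shoot markers 4 were measured. RCA, LHCB4.1, LHCB4.2 and PSAE-1, all genes of photosynthesis, had signals from 2415.5 to 4426.8. The part of root tissue in the signals of the members was not tested.

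**Figure D1:**
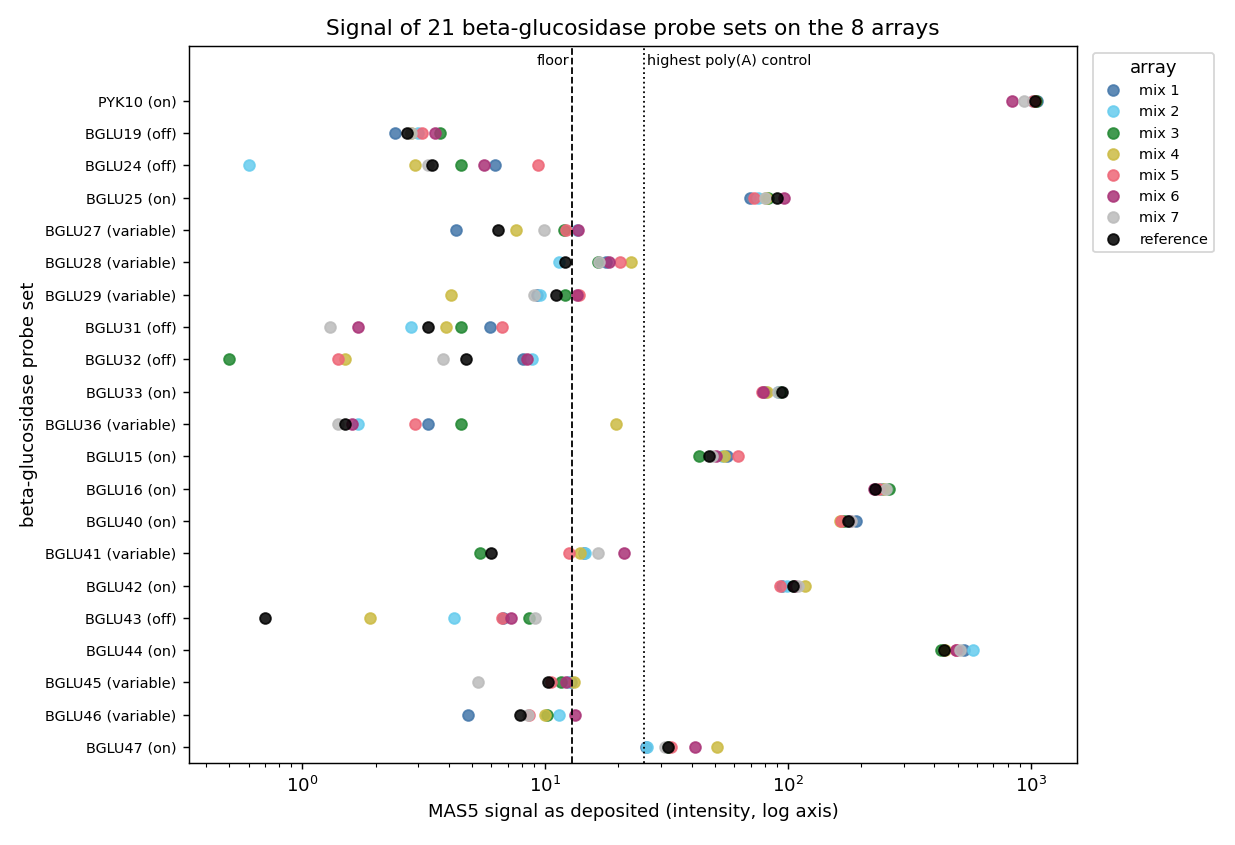
Signal of the 21 beta-glucosidase probe sets (rows, ordered by branch of the family) on the 8 arrays (points, coloured by array), on a log axis of MAS5 signal; the dashed line is the floor of 12.9 and the dotted line the highest poly(A) control, 25.5. The 9 members that were on lie to the right of both lines on every array, and BGLU47 starts next to the dotted line at 26.0.

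Among the enzymes of the ER body branch, PYK10 and BGLU25 were on, and BGLU19 and BGLU24 were off. PYK10 (AT3G09260) had signals of 1055.8, 1014.5, 1049.5, 1041.1, 1023.1, 838.0 and 931.4 in mixes 1 to 7 and of 1039.6 on the reference array. Its mean was 999 ± 76.1 (SD, n = 8 arrays). The arrays of mixes 6 and 7 were the lowest, and the other 6 lay between 1014.5 and 1055.8. Relative to the reference array, the log2 ratio of mix 6 was -0.31 and that of mix 7 was -0.16, and the other mixes lay between -0.04 and 0.02. Quantile normalization gave -0.28 for mix 6, and common-median scaling gave -0.43. Over all 8 arrays the highest PYK10 signal was 1.26-fold the lowest, and 1.13-fold without the mix 6 array.

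BGLU25 (AT3G03640), a relative of PYK10, had a lowest signal of 69.4, a median of 80.8 and a highest of 96.0. Its lowest array was mix 1 and its highest mix 6, where PYK10 was lowest. It lay below the reference array in 6 of 7 mixes, with log2 ratios from -0.38 to 0.09. All 7 ratios share the reference array, on which BGLU25 had its next highest signal, 90.3. BGLU19 (AT3G21370) stayed between 2.4 and 3.7. BGLU24 (AT5G28510) stayed between 0.6 and 9.3. Neither therefore reached the floor on any array, which bounds the signal and does not show that the transcripts are absent.

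Most measured genes linked to ER bodies or to the PYK10 complex were on, as were most of all probe sets. Of 14 listed genes of ER bodies and of the PYK10 complex, 6 had a probe set of their own. Of these 5 were on and 1 was variable, beside 66.5% on among all probe sets. The count was not tested against that share. NAI2, a component needed to form ER bodies, had signals from 183.8 to 201.1 with a mean of 193 ± 5.18 (SD, n = 8 arrays). NAI1, the transcription factor needed for PYK10 expression and ER bodies, had signals from 23.8 to 43.0, a range that holds the 25.5 of the highest poly(A) control. Jacalin-related lectins gather in the PYK10 complex when tissue is broken. JAL34 had signals from 258.7 to 354.5, JAL22 from 189.5 to 259.7 and JAL33 from 146.9 to 221.8. JAL23 was variable, with signals from 7.1 to 19.7. None of the 6 was 2-fold from the reference array in any mix.

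Only part of these genes shared the low PYK10 signal of the mix 6 array. NAI2 and JAL34 were also lowest there, at 183.8 and 258.7. So was JAL23, at 7.1, which is under the floor. NAI1 was highest there, at 43.0. JAL33 was lowest in mix 2 and highest in mix 4, and its 158.7 in mix 6 was its next lowest. JAL22 was lowest in mix 4 and highest in mix 2. These are single arrays, and the differences were not tested.

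**Figure D2:**
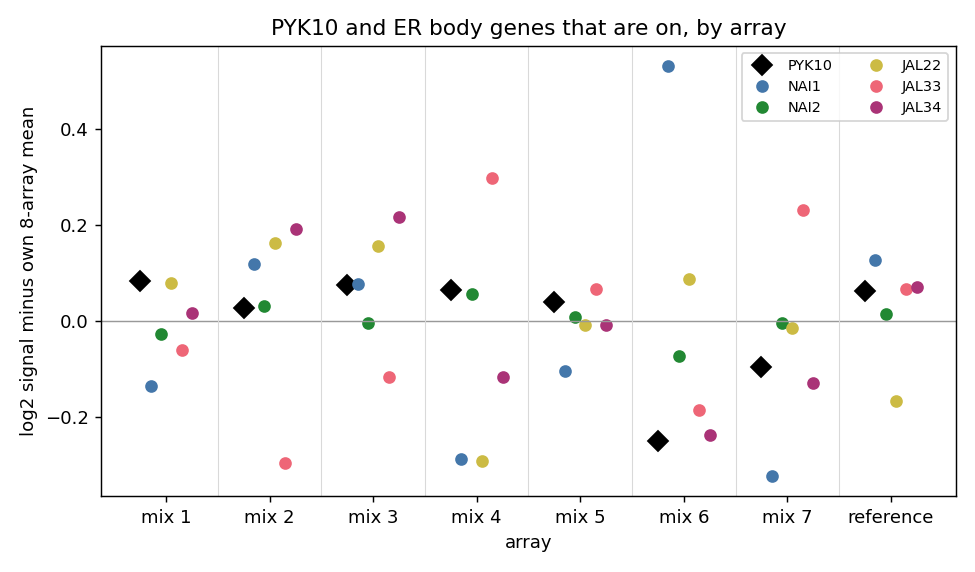
Log2 signal minus the gene's own mean over the 8 arrays (vertical axis), by array. Diamonds are PYK10, and circles are the 5 listed genes of ER bodies and of the PYK10 complex that were on. On the mix 6 array PYK10, JAL33, JAL34 and NAI2 lie below 0 and NAI1 and JAL22 above it; PYK10 is at -0.25 there.

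BGLU27 to BGLU33 are part of the branch of the atypical myrosinases, enzymes that act on glucosinolates, abscisic acid conjugates and related glucosides. Of the 6 measured in this part only BGLU33 was on. The ER body enzymes above are not counted in it. BGLU33 (AT2G32860), known for the release of abscisic acid from its glucose ester, had a lowest signal of 78.0, a median of 86.0 and a highest of 93.9. The highest value was that of the reference array, so all 7 mixes lay below it, with log2 ratios from -0.27 to -0.02. With the mean of all other arrays as comparator the sign turned in 3 mixes, to 0.09 in mix 2, 0.13 in mix 3 and 0.10 in mix 7. The listed abscisic acid genes with a probe set were 2 of 9. UGT71C5, which glucosylates abscisic acid, was on with signals from 81.6 to 119.7. UGT71B6, another abscisic acid glucosyltransferase, was off with a highest signal of 0.7.

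BGLU28 (AT2G44460), known to be induced by sulphur deficiency, was the variable member with the most arrays above the floor, 6 of 8. Its signals ran from 11.4 to 22.5, and the mix 2 and reference arrays were the lowest, at 11.4 and 12.1. BGLU27 and BGLU29 passed the floor on 2 arrays each, with highest signals of 13.6 and 13.8. BGLU31 and BGLU32 were off, with highest signals of 6.6 and 8.8. BGLU36 (AT1G51490), of the branch of classical myrosinases, had 19.5 in mix 4 and between 1.4 and 4.5 on the other 7 arrays. None of the 23 listed glucosinolate genes and none of the 6 listed starvation genes had a probe set with 1 annotated gene, so these lists were not analysed here.

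In the branch of BGLU15, which cleaves flavonol glucosides, both measured members were on. BGLU15 (AT2G44450) had a lowest signal of 43.0 in mix 3, a median of 51.7 and a highest of 62.2 in mix 5. The log2 ratio to the reference array ran from -0.14 in mix 3 to 0.39 in mix 5. BGLU16 (AT3G60130) was among the steadiest members: its lowest signal was 224.9, its median 240.3 and its highest 260.7. Its coefficient of variation over the arrays was 5.04%, and its range was 1.16-fold.

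BGLU40, BGLU42 and BGLU44 were on, while BGLU41 was variable and BGLU43 was off. BGLU44 (AT3G18080), an enzyme that also acts on short mannose chains, had a lowest signal of 425.0 in mix 3, a median of 491 and a highest of 577.9 in mix 2. It was above the reference array in 6 of 7 mixes, by a log2 ratio of 0.40 in mix 2. The reference signal, 437.7, was its next lowest after mix 3. Under common-median scaling the ratio of mix 2 was 0.36, and mix 4 turned from 0.01 to -0.10. With the mean of all other arrays as comparator the ratio was -0.16 in mix 4, and 0.02 and 0.01 in mixes 5 and 6 in place of 0.17 and 0.16. BGLU40 (AT1G26560) had signals from 163.7 to 189.8 and the lowest coefficient of variation of the members that were on, 5.00%. BGLU42 (AT5G36890), known from the release of root phenolics and from induced systemic resistance, had signals from 92.1 in mix 5 to 117.1 in mix 4, with a median of 105. BGLU41 (AT5G54570) passed the floor on 5 of 8 arrays, with signals from 5.4 to 21.1, and BGLU43 (AT3G18070) had a highest signal of 9.1.

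The monolignol glucosidases BGLU45 and BGLU46, which act on stored lignin precursors, were near or under the floor, and their relative BGLU47 was on at a low signal. BGLU45 (AT1G61810) had signals from 5.3 to 13.1 and BGLU46 (AT1G61820) from 4.8 to 13.3, and each passed the floor on 1 array. BGLU47 (AT4G21760) had signals of 26.0, 26.2, 31.9, 51.0, 33.0, 41.4 and 31.2 in mixes 1 to 7, beside 32.0 for the reference. The mix 4 and mix 6 arrays were the highest, and mixes 1 and 2 the lowest, next to the highest poly(A) control at 25.5. The range of BGLU47 overlaps that of EXPA18, and with the floor at the 40th percentile, 27.7, BGLU47 was no longer on.

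Of the 15 listed genes of monolignol and coumarin glucosides 5 were measured, of which 3 were on and 2 off, beside 66.5% on and 16.5% off among all probe sets. UGT72E1 and UGT72E2, glucosyltransferases of this list, were on with signals from 69.8 to 92.8 and from 35.3 to 47.1. UGT72E3, their close relative, was off with a highest signal of 2.1. AT3G12900 was on with signals from 23.1 to 43.4. AT3G13610, the F6'H1 gene of coumarin synthesis, was off with a highest signal of 3.4.

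Several members are neighbours on the chromosome. By the gene order of TAIR10.1, 11 members form 6 pairs with no other protein-coding gene between them. In 3 pairs 1 gene was on and its neighbour was not, in 3 pairs neither was on, and in 0 pairs both were. Of all 210 pairs that the 21 members can form, 51.4% hold 1 member that was on and 1 that was not, so 3 mixed pairs of 6 lie near the share among any members. BGLU16 was above the floor on 8 arrays and its neighbour BGLU27 on 2. BGLU44 was above it on 8 arrays and BGLU43 on 0. BGLU15 was above it on 8 arrays, BGLU28 beside it on 6 and BGLU29, the next gene, on 2. Signals of different probe sets depend on how well each binds its target, so no level of one neighbour is set against that of the other. BGLU31 and BGLU32 were both off, and BGLU45 and BGLU46 both variable.

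**Figure D3:**
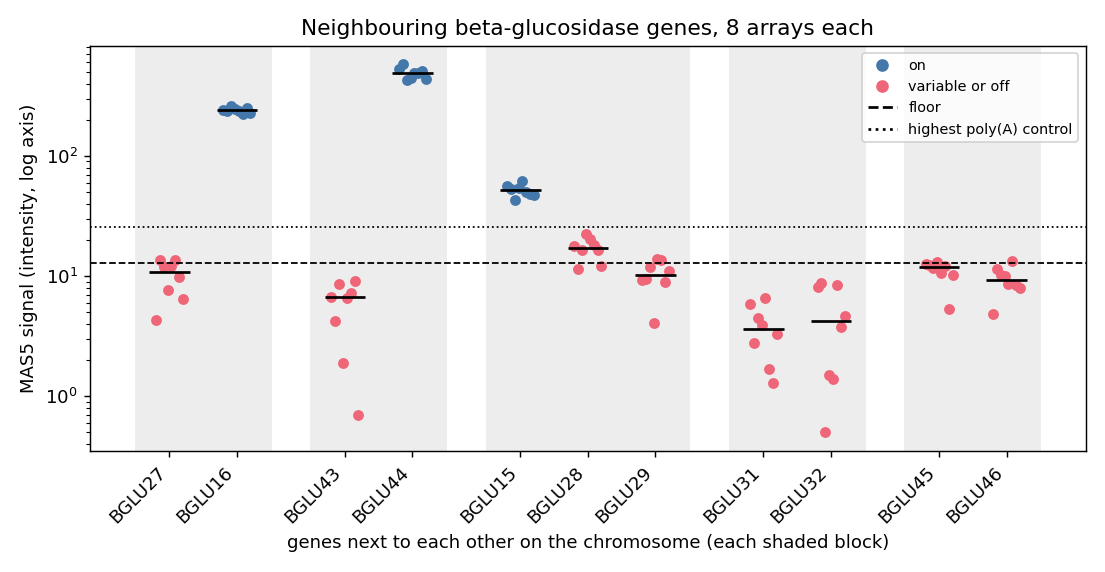
Signal (log axis) of the 11 members that lie next to another member, in 5 chromosomal groups (shaded blocks); each point is 1 array, in the order mix 1 to mix 7 and reference from left to right, and each bar is the median of 8 arrays. BGLU16, BGLU44 and BGLU15 (blue) lie above both lines on all arrays, and their neighbours (red) lie below the highest poly(A) control of 25.5.

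Between the spike mixes the members that were on differed little. No member was 2-fold from the reference array in any of the 147 pairs of a member and a mix. Each signal was raised to the floor first. The 12 members that were not on had signals of at most 22.5, less than 2-fold the floor, so they could not be called. The background was small too: over all probe sets and mixes, 0.683% of the pairs were at least 2-fold higher and 0.337% at least 2-fold lower. No member spanned 2-fold over the 8 arrays, against 9.20% of all probe sets, but only the 9 that were on could have done so. The 15 probe sets of the table that spanned at least 16-fold hold no member. Among the members that were on, 1 of 9 spanned 1.5-fold, against 36.6% of all probe sets that were on. That member was BGLU47, at 1.96-fold. Ratios to the reference array of the other 8 stayed within 1.5-fold in every mix.

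Of the 9 members that were on, 6 had an SD of log2 signal below the median of probe sets of like brightness. For this the probe sets that were on were split into 4 equal bins of mean signal, with median SDs of 0.26, 0.18, 0.14 and 0.11 from the dimmest to the brightest bin. As many probe sets of a bin lie below its median as above it, and the count of 6 was not tested. The count also depends on the bin edges. BGLU25, with a mean of 80.9, lay close under the edge at 83, and its SD of 0.16 exceeds the median of the next bin, 0.14. PYK10 had an SD of 0.12 in the brightest bin, where the median was 0.11, and 43.3% of that bin had a larger SD. BGLU44 had 0.15 in the same bin, where 21.0% had a larger SD. BGLU47 had 0.33 in the dimmest bin, and 26.6% of it had a larger SD. BGLU40 lay at the steady end of its bin, with an SD of 0.072 that 94.5% exceeded. Its mean of 175 is next to the upper edge of that bin, 177, so it was ranked mostly against dimmer probe sets. BGLU16 had a like SD of 0.073 in the brightest bin, where 84.1% exceeded it.

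**Figure D4:**
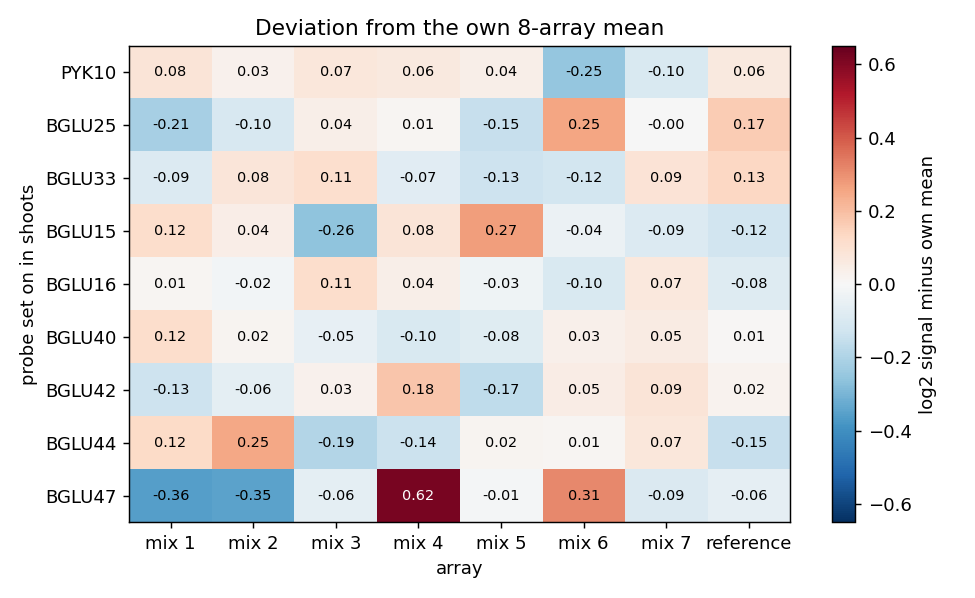
Log2 signal minus the member's own mean over the 8 arrays (colour and printed value) for the 9 members that were on (rows) by array (columns). The values furthest from 0 are those of BGLU47, at 0.62 in mix 4, and no column holds values of 1 sign.

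No array moved all members one way. The number of the 9 that lay above their own mean was 3 in mix 5, 6 in mix 4 and 5 on each other array. Of all probe sets that were on, the share above their own mean ran from 46.5% in mix 1 to 55.2% in mix 4. It was 52.8% in mix 5. The counts of members were not tested against these shares. The arrays of mixes 4, 5 and 6 stood apart from the other 5 in the first principal component of all probe sets outside the 15 widest. This component carried 29.9% of the variance, and the loadings of those 3 arrays were 0.50, 0.28 and 0.53, against -0.38 to -0.11. Without these 3 arrays the same 9 members were on, but at the same floor leaving out arrays can only add members.

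The 3'/5' ratio of control transcripts, a measure of RNA quality and labelling, was set against the signal of each member that was on. As the geometric mean of the actin, GAPDH and ubiquitin controls it ran from 1.48 in mix 2 to 1.64 in mix 4. Of 9 relations over the 8 arrays, 0 passed an adjusted p of 0.05 by Pearson or Spearman correlation, and 0 had an unadjusted exact permutation p under 0.05; 8 arrays leave weak relations undetected. BGLU44 had r = -0.67 (two-sided exact permutation p = 0.0697, adjusted p = 0.614) and rho = -0.40 (exact p = 0.327, adjusted p = 0.981), and r was -0.21 without the 2 arrays furthest from the median ratio, mixes 2 and 4. PYK10 had r = 0.43 (exact permutation p = 0.273, adjusted p = 0.614) and rho = 0.31 (exact p = 0.462, adjusted p = 0.992), and r was 0.74 without those 2 arrays. Without the mix 6 array the r of PYK10 was 0.15.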

How the data were processed

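RNA of 8 whole-shoot samples was measured on 1 ATH1 array each. Per the submitters' processing notes the authors used MAS5, and the deposited table holds its linear intensity (signal) for every probe set; version and settings are not given in the sources used here. The 2% trimmed mean was 100.0 on every array, and the values were used with no further scaling. Between 73.6% and 77.0% of probe sets per array lay above the floor of 12.9. The table gives no detection calls; precision is limited by how many arrays there are.

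Members were matched by symbol through the platform's gene table (13513 probe sets with 1 gene) and the TAIR10.1 gene table, which also gave the gene order. No sequence was printed. Values under the floor were raised to it before log2 ratios and ranges. The 64 control probe sets were left out of backgrounds. With 1 array per mix no test between mixes was possible. Relations to the 3'/5' ratio were tested by two-sided exact permutation over 40320 pairings, with Benjamini-Hochberg adjustment over the 9 members. Every member was named; of the gene lists, all measured genes were, which goes beyond the rule of the 3 brightest. The members and lists were chosen with earlier results of these data known. Alternatives were other floors, common-median scaling, quantile normalization, a 1.5-fold threshold, another comparator and leaving out arrays. The counting steps were tested on simulated data. Computations ran in Python 3.11.15 with scipy 1.17.1, numpy 2.4.6 and pandas 2.3.3, and figures were drawn with matplotlib 3.10.9.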

Additional observations from a re-analysis of the deposited data

Results flagged for a closer look

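In 2 of 21 members, 1 array lay far from the other 7 by Dixon's 95% criterion, which chance alone meets in about 1 of 20 groups. BGLU36 had a signal of 19.5 in mix 4 and from 1.4 to 4.5 on the others, a log2 ratio to the reference array of 0.60 after both were raised to the floor. BGLU45 had 5.3 in mix 7 and from 10.3 to 13.1 on the others. Both values lie under the highest poly(A) control, 25.5.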

How the results depend on the processing

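The 9 members that were on stayed on under common-median scaling, quantile normalization and a floor at the highest poly(A) control. With the floor at the 40th percentile 8 were on, beside 53.5% of all probe sets. Without any 1 array the count was 9 too, but at the same floor leaving out an array can only add members. With the floor at the 10th percentile, 2.7, 15 were on and 0 off, beside 82.0% of all probe sets on. Of the pairs of a member and a mix, 16 were then 2-fold higher and 1 lower than on the reference array. At that floor 10 members spanned 2-fold. All 10 belonged to the 12 members that were not on, whose signals are then compared near 0. Off members numbered 5, but 12 with the floor at the 40th percentile or at the highest poly(A) control. The share of all probe sets that were off is not given at these other floors. Without the arrays of mixes 4, 5 and 6, an alternative chosen after seeing the data, 9 were off. Without 1 array from 5 to 7 were off, with 7 without mix 4. At the same floor leaving out arrays can only add off members. At a 1.5-fold threshold 4 members passed by their range, and 5 pairs were higher and 0 lower. Common-median scaling removed a shift of 0.11 in mix 4 and 0.12 in mix 6 (log2). Of the values of single members under these alternatives, 439 stayed within the spread over arrays, or on their side of the test, and 29 moved by more. The 439 include mean signals without 1 array, which by their arithmetic cannot leave that spread. Of the 9 relations to the 3'/5' ratio 0 passed an adjusted p of 0.05 under any alternative. After quantile normalization the relation of PYK10 had r = 0.81 (exact permutation p = 0.0202, adjusted p = 0.182), and over its alternatives the adjusted p ran from 0.182 to 0.956. No paired analysis was possible because each mix has 1 array. Signals near the floor limit what can be said of the 12 members that were not on.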
